A study of Homo sapiens with 8 samples.

Results

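The genes described here are 10 components of insulin and insulin-like growth factor (IGF) signalling at the cell membrane: the receptors INSR, IGF1R and IGF2R, the insulin receptor substrates IRS1, IRS2 and IRS4, and the adaptors SHC1, SHC2, GRB2 and GRB10. They were picked by name from a table of 14526 genes, with their change under sodium benzoate (SB) already known, and all 10 have a row. IRS4 and SHC2 were singled out because they change the most, so the differences between SB-treated and control cells in these 10 genes are a description and carry no test. In short, IRS4 was 2.71-fold lower and SHC2 3.16-fold higher in SB-treated cells, INSR and IGF1R were 1.66-fold and 1.48-fold higher, and the other 6 genes differed by 1.29-fold or less.

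Insulin and the IGFs bind receptor tyrosine kinases, which phosphorylate themselves and then docking proteins. IRS proteins carry the signal mainly to phosphatidylinositol 3-kinase (PI3K) and AKT, and SHC proteins carry it through GRB2 and SOS to RAS and the MAP kinases. In the liver, insulin acting through INSR, IRS1 and IRS2 restrains glucose output.

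Total RNA was sequenced from 4 control replicates and from 4 replicates kept with 10 mM SB for 24 h, all grown in DMEM with 10% serum. SB is the sodium salt of benzoic acid, a food preservative, and the study used it to raise lysine benzoylation of histones. The labels give the cells as HepG2, a line from a human liver carcinoma, and all 8 libraries carry that label. The paper calls the replicates biological, and the labels do not say whether they came from separate cultures, so the p-values below measure the spread between these samples only.

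The HepG2 label was checked against 20 genes of hepatocytes, and 16 of them, among them ALB, AFP, APOA1, APOB, TTR, SERPINA1 and HNF4A, have no row in the table. The 4 with a row were low in controls, among them TF at 0.192 RPKM, CYP3A5 at 0.468 RPKM and ASGR1 at 1.08 RPKM (means, n = 4). Most defining transcripts of the labelled cell type were thus absent from the table or low, and HepG2 is used below only as a label. In SB-treated cells TF and CYP3A5 were higher (limma adjusted p = 0.00187 and 7.46e-05), ASGR1 did not pass the test (limma adjusted p = 0.108), and the summed level of the 4 went from between 2.06 and 2.39 RPKM to between 3.12 and 3.44 RPKM. Of 15 markers of endothelial cells, leukocytes and fibroblasts, 6 have a row, and none had a group mean above 4.86 RPKM. Their summed levels were 0.268 to 0.348 RPKM in controls and 0.113 to 0.185 RPKM in SB-treated cells for endothelial markers, 2.39 to 2.83 and 2.53 to 3.17 RPKM for leukocyte markers, and 6.13 to 8.32 and 6.07 to 6.29 RPKM for fibroblast markers. By limma KDR and COL3A1 fell and CD68 and LUM rose, COL1A1 did not pass the test, and PECAM1, CDH5, VWF, TEK, PTPRC, CD14, CD3E, COL1A2 and DCN have no row. The part of these markers in the results below was not tested. The reads on the table's genes, recovered from the deposited values, numbered 36990091 to 44492817 in controls and 37161801 to 44878446 in SB-treated libraries. Control replicate 1 stood apart from the other controls for 14.6% of all genes by Dixon's criterion, against at most 0.620% for any other control. Among the 10 genes it was the lowest control for 7 and the highest for 1, so values without it are given where they matter.

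Levels are in RPKM, reads per gene scaled to the gene length and to the library size, and were scaled between libraries by the authors. A log2 fold change is the difference of group means of log2(RPKM + 1), SB-treated minus control, with its standard error (SE) from limma, and the added 1 understates changes of genes with low RPKM. In RNA from whole cultures, a lower level per cell cannot be told apart from fewer cells with the transcript.

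INSR (hg38 chromosome 19, 7112255 to 7294414, minus strand) encodes the insulin receptor. Its level in the controls was 5.57, 6.79, 6.52 and 6.53 RPKM for replicates 1 to 4. In SB-treated cells it was 10.7, 10.4, 10.6 and 10.5 RPKM. Every SB-treated value lay above every control value, and the SB-treated values were close together (10.5 ± 0.113 RPKM, SD, n = 4) while control replicate 1 was lowest (controls 6.35 ± 0.538 RPKM, SD, n = 4). This was a log2 fold change of 0.65 (SE 0.052), and of 0.60 without control replicate 1.

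IGF1R (chromosome 15, 98648539 to 98964530, plus strand) encodes the receptor for IGF1 and IGF2, a close relative of the insulin receptor that is mainly known for growth and survival. It read 9.83, 12.2, 12.0 and 12.3 RPKM in the controls and 17.3, 17.4, 17.1 and 16.7 RPKM in SB-treated cells. The groups did not overlap, and control replicate 1 was again the lowest. Its log2 fold change was 0.53 (SE 0.064), and 0.46 without control replicate 1. The level of IGF1R relative to INSR was 1.82 ± 0.0491 (SD, n = 4) in controls and 1.62 ± 0.0270 (SD, n = 4) in SB-treated cells, with no overlap.

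IGF2R encodes the cation-independent mannose 6-phosphate receptor, which is no kinase and takes IGF2 to lysosomes. The gene lies on chromosome 6 (159969082 to 160113507, plus strand). Its level was 31.1, 35.8, 34.6 and 36.8 RPKM in controls and 40.1, 40.3, 39.9 and 39.2 RPKM in SB-treated cells. The ranges were separate but near each other, and the log2 fold change of 0.20 (SE 0.051) was 0.15 without control replicate 1. The 3 receptors thus shared a direction and differed in size, from 1.15-fold for IGF2R to 1.66-fold for INSR.

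**Figure D1:**
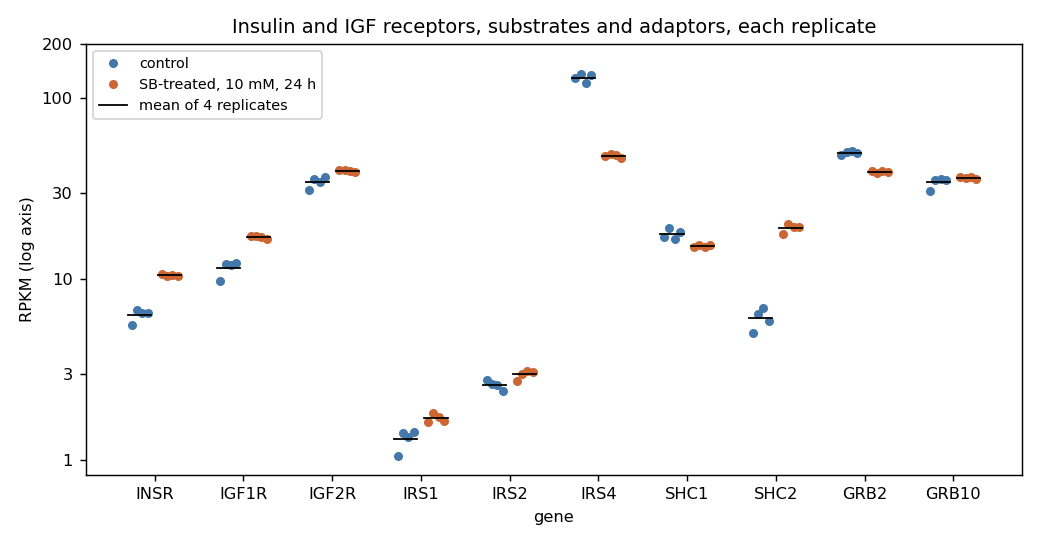
RPKM (log axis) of the 10 genes in each of the 4 control and 4 SB-treated replicates, with lines at the group means. IRS4 falls from 131 RPKM to 48.3 RPKM, SHC2 rises from 6.09 to 19.2 RPKM, and control replicate 1 (leftmost point of each control group) lies low for INSR, IGF1R, IGF2R and GRB10.

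IRS4 (chromosome X, 108719946 to 108736563, minus strand) encodes an insulin receptor substrate that docks PI3K and GRB2, is found in few adult tissues, and was first described in a human embryonic kidney line. In the controls it read 129, 137, 121 and 135 RPKM, from 16770 to 21464 reads. In SB-treated cells it read 48.3, 49.2, 48.5 and 47.0 RPKM, from 7208 to 8484 reads. The lowest control was far above the highest SB-treated value, and the SB-treated replicates lay within a narrow range (48.3 ± 0.920 RPKM, SD, n = 4, against 131 ± 7.19 RPKM, SD, n = 4, in controls). On log2(RPKM + 1) the difference was -1.42 (SE 0.044), and 6 of the 14526 genes fell further on that scale. The rank holds on that scale only, where low genes rank lower. IGFBP5, for example, fell 2.81-fold from 3.38 RPKM and had a log2 fold change of -0.99. By mean RPKM, IRS4 stood at place 415 of the 14526 genes in controls and at place 1236 in SB-treated cells. The authors counted it over 3881 bases, while its MANE Select transcript in GENCODE release 44 has 6563 bases, so its RPKM refers to the shorter model, and 439 bases of that transcript are shared with exons of IRS4-AS1 on the other strand, which has no row.

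IRS1, the first of the substrates to be described and a main mediator of insulin action in muscle, lies on chromosome 2 (226731312 to 226799820, minus strand). It was low, at 1.06, 1.42, 1.34 and 1.44 RPKM in controls and 1.62, 1.82, 1.73 and 1.65 RPKM in SB-treated cells. The groups did not overlap, and control replicate 1 was the lowest value. The log2 fold change was 0.23 (SE 0.056), and it was 0.17 without control replicate 1 and 0.36 with a pseudocount of 0.1.

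IRS2, the substrate most tied to insulin action in liver and beta cells, lies on chromosome 13 (109752695 to 109786583, minus strand). Its controls read 2.78, 2.64, 2.59 and 2.42 RPKM and its SB-treated replicates 2.74, 3.01, 3.13 and 3.06 RPKM. SB-treated replicate 1 lay inside the control range, so the groups overlapped. This rested on control replicate 1, as the next highest control read 2.64 RPKM. Without control replicate 1 the groups were separate, and the log2 fold change was 0.17. The means were 2.60 ± 0.149 and 2.99 ± 0.168 RPKM (SD, n = 4 each), with a log2 fold change of 0.14 (SE 0.045).

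The makeup of the substrate pool can be read within each library. Summed over IRS1, IRS2 and IRS4, the level was 135 ± 7.21 RPKM (SD, n = 4) in controls and 52.9 ± 0.995 RPKM (SD, n = 4) in SB-treated cells. IRS4 made up 96.9% to 97.2% of that sum in the controls and 90.9% to 91.7% in SB-treated cells. It therefore remained the main IRS transcript in every library, while the share of IRS2 went from 1.94% to 5.64% and that of IRS1 from 0.978% to 3.21% (means, n = 4). The ratio of IRS4 to IRS1 was 101 ± 14.3 (SD, n = 4) in controls and 28.4 ± 1.18 (SD, n = 4) in SB-treated cells. These shares depend on the counted lengths, and in shares of reads IRS4 held 94.5% and 84.0%.

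SHC2 (chromosome 19, 416589 to 461033, minus strand) encodes a member of the SHC family with a phosphotyrosine-binding and an SH2 domain, best known from neurons. The control values were 5.07, 6.40, 6.97 and 5.91 RPKM, from 538 to 628 reads. The SB-treated values were 17.7, 20.2, 19.4 and 19.5 RPKM, from 1698 to 2259 reads. The groups were far apart, and the lowest value of each group was its replicate 1. The means were 6.09 ± 0.805 and 19.2 ± 1.06 RPKM (SD, n = 4 each). The log2 fold change was 1.52 (SE 0.078), and 4 of the 14526 genes rose further on log2(RPKM + 1). The rank holds on that scale only. NOXO1, for example, rose from 0.848 to 3.11 RPKM and had a log2 fold change of 1.16. For SHC2 the log2 fold change was 1.45 without control replicate 1 and 1.65 with a pseudocount of 0.1. SHC2 moved from place 8339 by mean RPKM in controls to place 3920 in SB-treated cells.

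SHC1, the widely expressed SHC adaptor that links receptors to GRB2, lies on chromosome 1 (154962298 to 154974395, minus strand). It read 17.1, 19.2, 16.7 and 18.3 RPKM in controls and 15.0, 15.4, 15.1 and 15.5 RPKM in SB-treated cells. All SB-treated values lay below the controls, by a small margin. Its log2 fold change was -0.21 (SE 0.045). Its MANE Select transcript shares 335 bases with exons of PYGO2 on the same strand, and reads in the shared part cannot be assigned with certainty.

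SHC1 and SHC2 exchanged places. SHC1 was above SHC2 in every control, with a ratio of SHC2 to SHC1 from 0.297 to 0.417, and SHC2 was above SHC1 in every SB-treated replicate, with a ratio from 1.18 to 1.31. Of the summed SHC level, SHC2 made up 22.5% to 29.0% in controls and 53.6% to 56.2% in SB-treated cells. SHC4, the other family member with a row, contributed 1.53% and 0.972% (means, n = 4), and SHC3 has no row. In shares of reads, which do not correct for length, SHC2 held 18.3% and 45.1%, so by reads SHC1 was still ahead in SB-treated cells. The summed SHC level was 24.3 ± 1.45 RPKM (SD, n = 4) in controls and 34.8 ± 1.25 RPKM (SD, n = 4) in SB-treated cells.

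**Figure D2:**
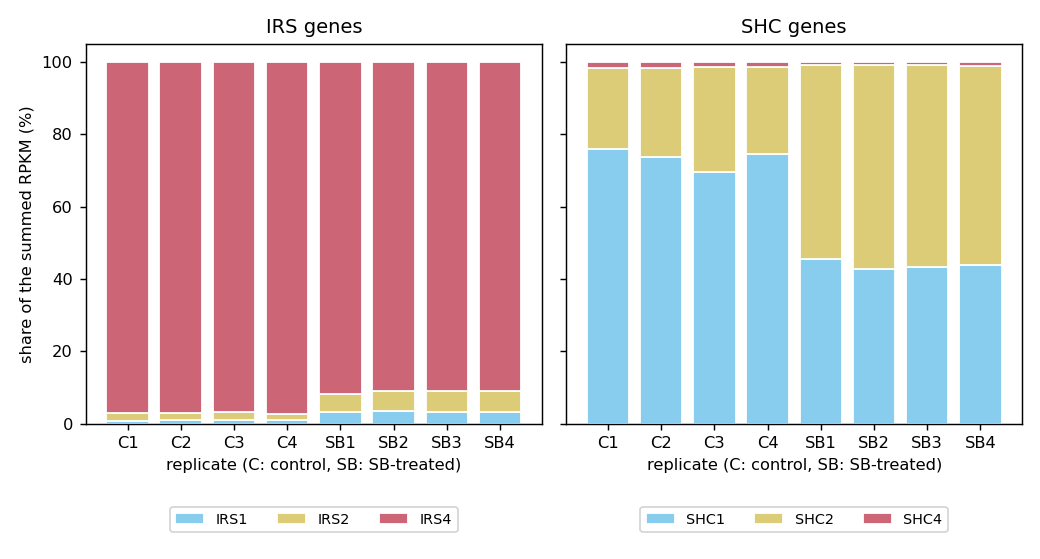
Share of the summed RPKM (%) taken by each IRS gene (left) and each SHC gene (right) in the 4 control (C1 to C4) and 4 SB-treated (SB1 to SB4) replicates. IRS4 holds at least 90.9% of the IRS sum in every library, and SHC2 goes from at most 29.0% to at least 53.6% of the SHC sum.

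GRB2, the adaptor that brings SOS to phosphorylated receptors and SHC, lies on chromosome 17 (75318076 to 75405709, minus strand). It read 48.4, 50.8, 51.0 and 49.9 RPKM in controls and 39.5, 38.7, 39.7 and 39.3 RPKM in SB-treated cells. The groups were separate and each was tight, and the log2 fold change was -0.34 (SE 0.032). GRB10, an adaptor that binds the activated insulin and IGF1 receptors and damps their signal, lies on chromosome 7 (50590063 to 50793462, minus strand). It read 30.9, 35.6, 35.9 and 35.5 RPKM in controls and 36.6, 36.3, 36.8 and 35.7 RPKM in SB-treated cells. SB-treated replicate 4 lay inside the control range, and control replicate 1 was far below all other values. GRB10 had a log2 fold change of 0.08 (SE 0.050), and 0.03 without control replicate 1.

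Across the 10 genes, the groups did not overlap with SB-treated cells higher for 5 (INSR, IGF1R, IGF2R, IRS1 and SHC2) and with SB-treated cells lower for 3 (IRS4, SHC1 and GRB2). Over all 14526 genes, 31.0% were higher and 30.5% lower without overlap. Among the 10 genes, 6 were higher without overlap when control replicate 1 or 3 or SB-treated replicate 1 or 4 was left out. Without TMM factors 7 were, and the number lower stayed at 3 throughout. Since these genes were chosen by this contrast, nothing is read from their count. Their median log2 fold change was 0.17, against 0.0045 over all genes. The directions of the 10 log2 fold changes held in each of the 14 alternative settings. Sizes were less steady for the smaller changes, and without TMM factors the log2 fold change was 0.30 for IGF2R, 0.22 for IRS2, -0.11 for SHC1 and 0.18 for GRB10.

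**Figure D3:**
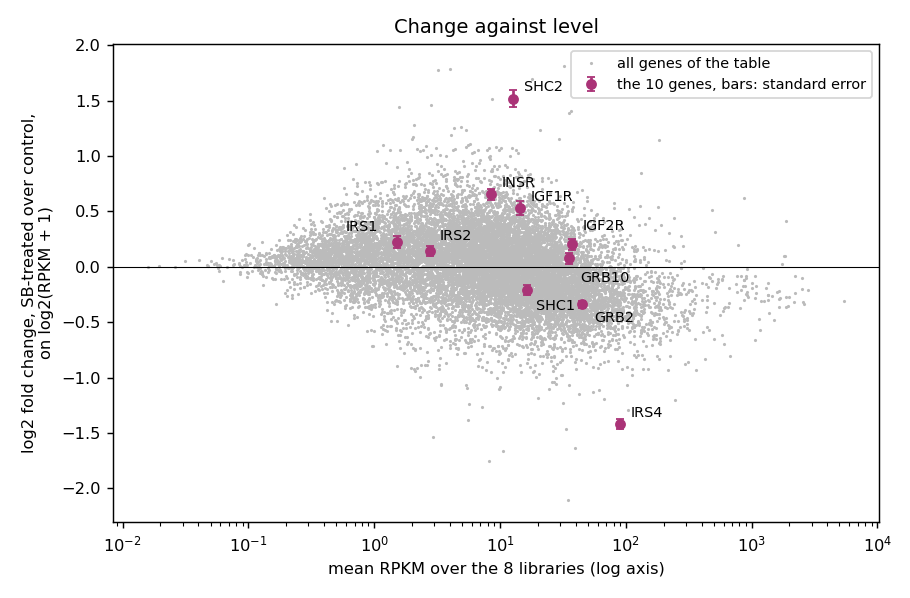
Log2 fold change on log2(RPKM + 1), SB-treated over control, against the mean RPKM over the 8 libraries (log axis), with all genes in grey and the 10 genes with standard errors. IRS4 (-1.42) and SHC2 (1.52) lie at the edge of the cloud, INSR (0.65) and IGF1R (0.53) lie towards its upper edge, and the other 6 lie within it.

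The order of levels was read per length. In controls it ran from IRS4 (131 RPKM) through GRB2 (50.0 RPKM), IGF2R, GRB10, SHC1 (17.8 RPKM), IGF1R, INSR and SHC2 to IRS2 and IRS1. The ranges of IGF2R and GRB10 overlapped, as did those of INSR and SHC2, and the other neighbours were separate. In SB-treated cells IRS4 was still first, at 48.3 RPKM, followed by IGF2R (39.9 RPKM) and GRB2 (39.3 RPKM), whose ranges overlapped. GRB10 (36.3 RPKM), SHC2 (19.2 RPKM), IGF1R (17.1 RPKM), SHC1 (15.3 RPKM) and INSR (10.5 RPKM) came next, and IRS2 and IRS1 were again last. IGF2R was counted over 9091 bases, while its MANE Select transcript has 14061, so its place depends on the gene model.

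For IRS4 and SHC2, the genes with the most similar pattern were ranked by Pearson's r of log2(RPKM + 1) across the 8 libraries, over 12545 genes with a mean of at least 1 RPKM. The 8 points form one cluster per group, so r mainly reflects how cleanly a gene separates the groups, and it is a description only. Nearest to IRS4 were PSMB2, a proteasome subunit, CA2, a carbonic anhydrase, GEMIN5, an RNA-binding protein of the SMN complex, ADAMTS1, a secreted metalloprotease, and CXCR4, a chemokine receptor, with r from 0.9988 to 0.9993. Among these, CA2 went from 342 to 149 RPKM and CXCR4 from 4.93 to 1.83 RPKM. Nearest to SHC2 were TESK1 and MINK1, which are protein kinases, FUT1, a fucosyltransferase, ARVCF, a catenin of cell junctions, and NOXO1, an organizer of NADPH oxidase, with r from 0.9979 to 0.9986. ARVCF went from 2.15 to 6.49 RPKM and FUT1 from 2.38 to 6.04 RPKM.

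The sequence before each gene's start was read from RefSeq (GRCh38.p14, the hg38 coordinates), where all 10 genes have an entry. The 250 bases before the start are shown for IRS4 and SHC2, whose levels moved furthest and in opposite directions, and for INSR and IGF1R, the related receptors that rose together. Capitals mark GC boxes, GGGCGG on either strand, with overlapping matches merged. IRS4 lies at chrX:108736564-108736813, SHC2 at chr19:461034-461283 and INSR at chr19:7294415-7294664, each on the minus strand, and IGF1R lies at chr15:98648289-98648538 on the plus strand. RefSeq has a further IRS4 start 186 bases into the gene, and the upstream one is used.
IRS4: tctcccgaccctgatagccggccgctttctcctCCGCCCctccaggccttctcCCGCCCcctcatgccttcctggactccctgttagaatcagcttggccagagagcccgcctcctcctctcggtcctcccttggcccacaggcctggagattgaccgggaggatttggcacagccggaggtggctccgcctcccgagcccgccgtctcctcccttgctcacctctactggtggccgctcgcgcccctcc
SHC2: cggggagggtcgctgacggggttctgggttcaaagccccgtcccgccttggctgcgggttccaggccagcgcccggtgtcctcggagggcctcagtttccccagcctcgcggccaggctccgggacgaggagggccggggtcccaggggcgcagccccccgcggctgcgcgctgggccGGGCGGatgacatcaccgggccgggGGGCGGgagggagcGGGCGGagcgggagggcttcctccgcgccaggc
INSR: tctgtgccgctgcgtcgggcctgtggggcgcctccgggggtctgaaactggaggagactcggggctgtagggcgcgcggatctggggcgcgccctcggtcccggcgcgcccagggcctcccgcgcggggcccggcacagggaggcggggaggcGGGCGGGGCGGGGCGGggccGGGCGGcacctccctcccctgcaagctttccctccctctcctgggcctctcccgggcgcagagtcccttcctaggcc
IGF1R: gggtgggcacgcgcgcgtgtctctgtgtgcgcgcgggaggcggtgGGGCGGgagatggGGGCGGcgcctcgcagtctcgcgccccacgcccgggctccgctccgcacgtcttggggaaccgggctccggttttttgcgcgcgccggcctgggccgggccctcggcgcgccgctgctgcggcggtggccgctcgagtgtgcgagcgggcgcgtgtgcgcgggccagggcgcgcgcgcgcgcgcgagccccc

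The 4 windows have no TATA box (TATAAA) and are rich in G and C, with 68.0% for IRS4, 78.0% for SHC2, 78.4% for INSR and 81.2% for IGF1R, against a median of 58.0% over 35116 RefSeq windows of the same length. IRS4 has 16 CpG pairs, SHC2 29, INSR 28 and IGF1R 48, against a median of 11.0. A GC box occurs in the window at the most upstream start of 9 of the 10 genes, all but SHC1. It occurs in 42.6% of all windows, which include those at further starts of a gene. The window at a further SHC1 start has 2 GC boxes, and some windows at further GRB10 starts have none. At its most upstream start SHC1 has 4 CCAAT boxes (CCAAT), IRS2 has 2, and 32.0% of all windows have one. The E-box CACGTG occurs 3 times before IGF2R and before no other of the 10 at that start, and in 6.34% of all windows. The window at the further IRS4 start has 1 E-box. No FOXO motif (GTAAACA, 2.98% of all windows) and no CRE (TGACGTCA, 1.65%) was found before any of the 10, on either strand. These are matches of letters and not binding sites.

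The genes within 100 kb of IRS4 and SHC2 were also examined, a choice made after the data were seen. One coding gene lies that near to IRS4. It is COL4A5, a basement membrane collagen chain 22.4 kb away, which rose from 5.17 ± 0.175 to 7.61 ± 0.199 RPKM (SD, n = 4 each; log2 fold change 0.48, limma adjusted p = 3.39e-06), the opposite direction to IRS4. Near SHC2, 5 of 8 coding genes have a row. The closest, ODF3L2 at 2.3 kb and C2CD4C at 7.4 kb, had log2 fold changes of -0.09 and 0.11 (limma adjusted p = 0.254 and 0.155). CDC34, a ubiquitin-conjugating enzyme, fell (log2 fold change -0.22, limma adjusted p = 0.0128), and MIER2 and TPGS1 rose (0.19 and 0.38, limma adjusted p = 0.0196 and 0.0375). The call of CDC34 was lost without TMM factors (limma adjusted p = 0.142). Without SB-treated replicate 2 or 3, MIER2 had an adjusted p of 0.0594 and 0.0576 in limma, and TPGS1 lost its call in 6 of the 8 fits without 1 replicate.

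The other genes of the pathway were taken from 6 lists of 119 genes, of which 107 have a row. In the limma fit over all 14526 genes, 40 of the 107 rose (37.4%) and 25 fell (23.4%), against 33.0% and 32.6% of all genes. Without TMM factors 53 of the 107 rose and 18 fell, and over all genes 6253 rose and 3357 fell. Their median log2 fold change was 0.05. The lists were written with earlier results of these data known, so the counts are a description.

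INS and IGF1 have no row. IGF2 was at 0.207 ± 0.0148 RPKM (SD, n = 4) in controls and 0.274 ± 0.0534 RPKM (SD, n = 4) in SB-treated cells, a log2 fold change of 0.08 (SE 0.038, limma adjusted p = 0.101). IGF2 passed the threshold in limma with a pseudocount of 0.1 (0.27, adjusted p = 0.0333), without TMM factors (adjusted p = 0.0462) and without SB-treated replicate 4 (adjusted p = 0.0426). Of the 8 genes with a row among ligands, binding proteins and IGF2 mRNA-binding proteins, 2 rose (25.0%) and 4 fell (50.0%). Of all genes 33.0% rose and 32.6% fell. IGFBP5, a binding protein that holds IGFs in the matrix, fell from 3.38 ± 0.116 to 1.20 ± 0.0680 RPKM (SD, n = 4 each; limma adjusted p = 1.09e-07). IGFBP2 fell from 37.7 to 22.5 RPKM and IGF2BP3, which binds IGF2 mRNA, from 30.6 to 23.0 RPKM (limma adjusted p = 1.17e-06 and 7.80e-05). IGFBP7, which binds IGFs weakly, rose from 0.477 to 0.850 RPKM (limma adjusted p = 1.91e-04). The count of rises was 1 without control replicate 3 or 4 and without SB-treated replicate 1, 2 or 3.

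Of 23 other receptors, docking proteins and adaptors with a row, 12 rose (52.2%), 1 fell (4.35%) and 10 did not pass the test. Over all genes 33.0% rose and 32.6% fell. The median log2 fold change of the list was 0.10. GAB2, a docking protein that recruits PI3K and the phosphatase SHP2, rose from 3.08 ± 0.212 to 4.73 ± 0.223 RPKM (SD, n = 4 each; log2 fold change 0.49, SE 0.047, limma adjusted p = 1.53e-05). SH2B1, an adaptor of the insulin receptor and JAK2, rose from 10.1 to 13.9 RPKM and DOK6, a docking protein, from 0.635 to 1.16 RPKM (limma adjusted p = 9.18e-05 and 5.11e-06). NCK1, an adaptor to the actin cytoskeleton, was the one that fell, from 12.2 to 8.29 RPKM (log2 fold change -0.50, limma adjusted p = 2.35e-04). Without control replicate 1, 2 genes of this list fell.

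All 31 genes of the PI3K, AKT and mTOR list have a row, and 15 rose (48.4%), 9 fell (29.0%) and 7 did not pass the test. Among all genes 33.0% rose and 32.6% fell. DEPTOR, an inhibitor within the mTOR complexes, fell from 6.07 ± 0.305 to 3.09 ± 0.171 RPKM (SD, n = 4 each; log2 fold change -0.79, limma adjusted p = 9.27e-07). PIK3R3, a regulatory subunit of PI3K, fell from 10.7 to 6.09 RPKM and EIF4EBP1, a translation repressor that mTOR phosphorylates, from 256 to 172 RPKM (limma adjusted p = 5.29e-07 and 3.66e-06). TSC2, which restrains mTOR complex 1 through RHEB, rose from 23.5 ± 3.40 to 36.8 ± 1.61 RPKM (SD, n = 4 each; log2 fold change 0.64, limma adjusted p = 2.35e-04). The list thus held members of both directions on each side of the pathway.

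Of the 15 RAS and MAPK genes, 4 rose and 3 fell. RPS6KA1, a kinase downstream of ERK, rose from 13.3 to 18.7 RPKM (log2 fold change 0.46, limma adjusted p = 3.27e-04), and BRAF, a kinase above MEK, rose from 9.23 to 11.2 RPKM (limma adjusted p = 5.04e-04). MAP2K1, which encodes the kinase MEK, fell from 32.0 to 26.5 RPKM (limma adjusted p = 8.24e-05). Without TMM factors 7 rose and 1 fell, where over all genes 6253 rose and 3357 fell.

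FOXO factors raise transcription of catabolic genes when AKT is inactive. Of 12 FOXO factors and targets with a row, 2 rose (16.7%), 4 fell (33.3%) and 6 did not pass the test. Over all genes the shares were 33.0% and 32.6%. PCK1 and G6PC have no row. FOXO1 fell from 8.66 to 7.05 RPKM, PDK4, a brake on pyruvate oxidation, from 1.26 to 0.866 RPKM, and GADD45A, a stress gene, from 52.1 to 40.7 RPKM (limma adjusted p = 1.08e-04, 4.17e-04 and 0.00392). TRIB1, a pseudokinase, rose from 8.31 to 10.3 RPKM (limma adjusted p = 4.46e-05). The count of rises was 4 without control replicate 1, and 1 without any other replicate except SB-treated replicate 2.

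Of 18 inhibitors of receptor signalling with a row, 5 rose (27.8%), 4 fell (22.2%) and 9 did not pass the test. The shares over all genes were 33.0% and 32.6%. SOCS7, which binds IRS proteins, rose from 2.99 ± 0.164 to 4.89 ± 0.126 RPKM (SD, n = 4 each; log2 fold change 0.56, limma adjusted p = 2.42e-06). TRIB3, a stress-induced pseudokinase that binds AKT, rose from 38.7 to 53.9 RPKM and GIGYF1, a partner of GRB10, from 12.4 to 16.8 RPKM (limma adjusted p = 3.93e-04 and 3.28e-04). SOCS2, an inhibitor of growth hormone signalling, fell from 5.58 ± 0.635 to 3.15 ± 0.101 RPKM (SD, n = 4 each; log2 fold change -0.66, limma adjusted p = 1.36e-05).

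**Figure D4:**
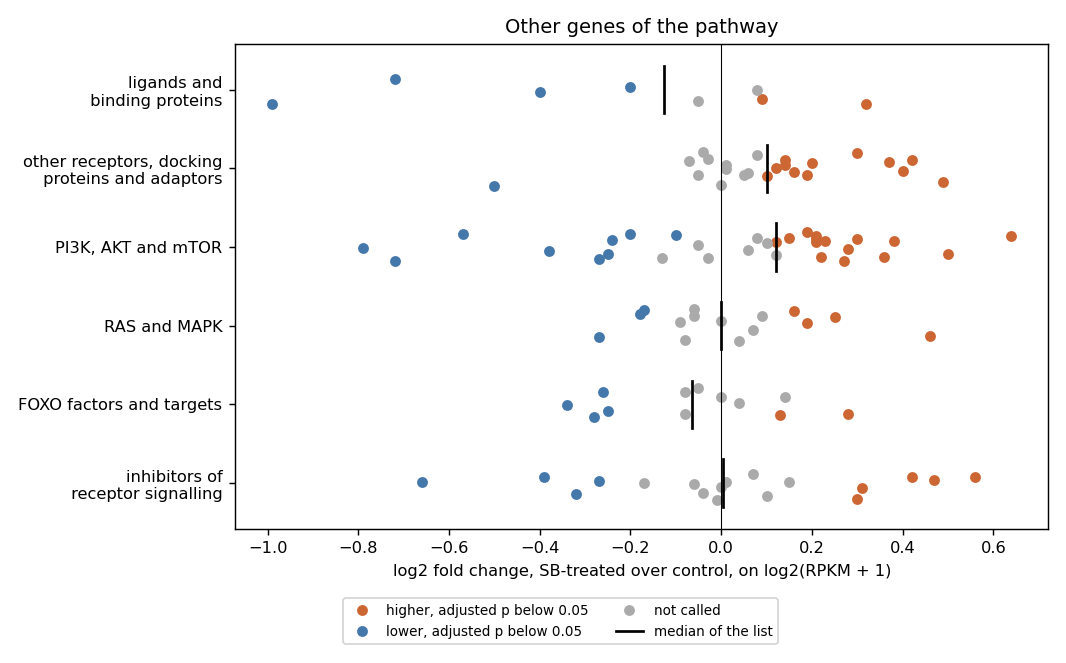
Log2 fold change on log2(RPKM + 1), SB-treated over control, of the 107 other pathway genes by list, coloured by the limma call, with a bar at each list's median. Of the other receptors, docking proteins and adaptors, 52.2% rose and 4.35% fell, against 33.0% and 32.6% of all genes. The lists were written with earlier results of these data known. The largest falls are those of IGFBP5 (-0.99), DEPTOR (-0.79), IGFBP2 and PIK3R3 (both -0.72).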

How the data were processed

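RNA-seq libraries of 4 control and 4 SB-treated replicates were grouped by their titles. Per the paper's methods and the submitters' processing notes, libraries came from a stranded total RNA kit with single-end reads, which were mapped with TopHat2 2.1.0 to hg38 and counted per gene with featureCounts 1.5.0. The strand setting of the counting is not given in the sources used here. The table was limited to genes over 1 CPM in 2 or more samples, with TMM scaling of library sizes. The authors deposited RPKM per gene and library. Their columns of log2 fold change, mean log2 CPM, p-value and FDR were not used.

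Because the deposited values are RPKM and not counts, limma 3.58.1 (R 4.3.3; lmFit, eBayes) was run on log2(RPKM + 1) over all 14526 genes, with Benjamini-Hochberg adjustment and a threshold of 0.05, two-sided. The 10 genes, the pathway lists and the marker lists were chosen with earlier results of these data known. The RPKM steps gave whole reads for 100.0% of the genes (Python 3.11.15), which were used for depth, for voom and for library sizes without TMM factors. Recovery and limma were tested on simulated data. In the limma simulation few genes changed and no library stood apart, unlike here, so it does not gauge how limma performs on these data. With 36990091 reads or more per library on the table's genes, relative counting error is largest for the lowest genes but is not confined to them.

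Named besides the 10 genes are up to 4 genes per pathway list with the largest absolute log2 fold change among those past the threshold, the listed ligands and hepatocyte markers with a row, and the 5 genes most correlated with IRS4 and SHC2. Some listed genes are not reported here. Neighbouring genes were added after the data were seen. Alternatives were a pseudocount of 0.1, a minimum mean of 1 RPKM, median-of-ratios scaling, no TMM factors, voom, a block for the replicate number, and fits without 1 library each. Coordinates and exons come from GENCODE release 44, and sequences from RefSeq. ChIP-seq data were not analysed here.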

Additional observations from a re-analysis of the deposited data

Results flagged for a closer look

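Control replicate 1 was far from its group for IGF1R and GRB10. For the log2(RPKM + 1) of IGF1R, the gap between control replicate 1, the lowest, and the next control was 0.904 of the whole range, and for GRB10 it was 0.940. Both exceed Dixon's 95% critical value for 4 samples. These are 2 of 20 groups tested, and chance alone passes about 1 in 20 when groups are independent. Both rest on control replicate 1, so they are not independent. That library passed the criterion for 14.6% of all genes, against at most 0.620% for any other control. Without control replicate 1 the log2 fold change was 0.46 in place of 0.53 for IGF1R and 0.03 in place of 0.08 for GRB10.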

How the results depend on the processing

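The 10 log2 fold changes kept their sign under all alternatives. Over these, IRS4 ranged from -1.45 to -1.31, SHC2 from 1.45 to 1.67, INSR from 0.60 to 0.75, IGF1R from 0.46 to 0.63, IGF2R from 0.15 to 0.30, IRS1 from 0.17 to 0.38, IRS2 from 0.12 to 0.22, SHC1 from -0.24 to -0.11, GRB2 from -0.35 to -0.24 and GRB10 from 0.03 to 0.18. Without TMM factors the median log2 ratio of all genes moved from 0.0077 to 0.1129, and 6253 genes were higher and 3357 lower in place of 4787 and 4740. Without TMM factors 53 pathway genes rose and 18 fell, among them 7 and 1 RAS and MAPK genes. Among ligands and binding proteins, 1 gene rose in place of 2 with a minimum mean of 1 RPKM, with median-of-ratios scaling and with the replicate block. With median-of-ratios scaling 2 other docking proteins and adaptors fell in place of 1. As shares of reads, IRS4 held 94.5% and 84.0% and SHC2 18.3% and 45.1% in control and SB-treated cells. In fits without 1 replicate, rises ranged from 1 to 2 among ligands and binding proteins and from 1 to 4 among FOXO genes, falls from 1 to 2 among other docking proteins and adaptors, and all genes from 4311 to 5459 higher and from 4285 to 5511 lower. The cause of these differences was not tested. Control and SB-treated replicates of equal number, each less its group mean, correlated across genes at 0.38, 0.327 and 0.173 for replicates 1 to 3 and at -0.16 for replicate 4, and the labels name nothing that equal numbers share, so the samples were not treated as paired. The replicate block gave 4885 rises and 4894 falls over all genes. ASGR1 passed the threshold in limma with the replicate block (adjusted p = 0.0227), without TMM factors (adjusted p = 0.0364) and without SB-treated replicate 1 (adjusted p = 0.0283). Counting error is largest for low genes such as TF, IGFBP7, LUM, KDR and IGF2.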

Other observations

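Replicate spread was compared with counting error for the 10 genes. For IRS4 the coefficient of variation was 5.50% in controls and 1.91% in SB-treated cells, where counting alone gives 0.705% and 1.13%. For SHC2 it was 13.2% and 5.51%, where counting gives 4.09% and 2.23%. For INSR it was 8.47% in controls and 1.07% in SB-treated cells, where counting gives 2.10% and 1.58%. By this measure the controls were the more variable group for each of the 10 genes, control replicate 1 included.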
